A study of Mus musculus with 38 samples.

Results

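The injury response of young NAM/PN muscle is the difference between the gastrocnemius of the leg that received cardiotoxin and the gastrocnemius of the uninjected, contralateral leg, 5 days after the injection, in young mice given nicotinamide (NAM) and pyridoxine (PN). Samples were chosen by age, treatment and leg as the labels give them, which took 3 injured and 5 contralateral samples, 8 of the 38 samples of the series. The mice were C57BL/6JRj males aged 12 to 13 weeks. They received NAM at 200 mg/kg and PN at 4 mg/kg by daily oral gavage in sodium carboxymethyl cellulose. Cardiotoxin, a snake venom toxin that destroys muscle fibres and spares many muscle stem cells, was injected into the gastrocnemius and the tibialis anterior of 1 leg. Both legs therefore had NAM/PN, and the contralateral leg came from an animal with an injury elsewhere, so it is not the muscle of an uninjured mouse. The 8 samples came from 5 mice, of which 3 gave both legs: injured libraries 1, 2 and 3 are from the mice of contralateral libraries 2, 3 and 4, and contralateral libraries 1 and 5 are from other mice. For comparison, the response was set beside that of young vehicle mice, which had the carrier alone (5 injured, 6 contralateral), and of aged NAM/PN mice of 23 to 25 months (4 injured, 6 contralateral). RNA was read by QuantSeq, a 3′ mRNA method in which each transcript gives reads near its polyadenylated end, so counts depend little on transcript length.

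Skeletal muscle repairs itself from resident stem cells, which lie under the basement membrane of each fibre and carry the transcription factor PAX7. After fibres die, these cells divide, switch on the myogenic regulators MYF5, MYOD and then myogenin, leave the cell cycle and fuse into new fibres, which first build embryonic and neonatal myosin and only later the adult fast or slow forms. The same days bring macrophages that clear debris and fibroblast-like progenitors that lay down matrix. NAM is a vitamin B3 form that cells convert to NAD through NAMPT and the NMNAT enzymes, and PN is a vitamin B6 form that the kinase PDXK takes up on the way to the cofactor pyridoxal phosphate.

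Libraries held 4697589 to 5858525 counts in injured and 4637794 to 6717648 in contralateral muscle, so depth did not separate the groups. Defining muscle genes were present in each library: Ckm, the muscle creatine kinase, was at 1811 to 3521 CPM (the TMM-scaled, library-size-corrected count of a gene) in injured and 7329 to 15510 CPM in contralateral muscle. The contralateral libraries were not alike. For the 154 genes that were at least 8-fold higher in injured muscle and had a mean of at least 10 CPM there, the median level, as a percentage of the injured mean, was 5.41, 4.89 and 3.07 in contralateral libraries 1, 2 and 3 but 13.8 and 10.9 in libraries 4 and 5. Libraries 4 and 5 also carried more RNA of the slow and oxidative fibre genes described below and a larger mitochondrial share of counts, 27.3% and 27.4% against 18.9% to 20.6%. Leaving out these 2 libraries was an alternative added after the data were seen. It is named below for many, though not all, of the results whose call or size depends on them. Injured library 1 had 217 CPM in total from 12 liver genes, which was 0.424 and 3.66 CPM in injured libraries 2 and 3 and 0.473 to 20.6 CPM in contralateral muscle. The part of these differences between libraries in the results was not tested.

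Of 12610 genes tested with edgeR's quasi-likelihood test, injury raised 2829 (22.4%) and lowered 2277 (18.1%) at a Benjamini-Hochberg adjusted p under 0.05, and 6103 had an unadjusted p under 0.05. The libraries of the 2 legs did not overlap for 5445 genes (43.2%), and 4481 of the 5106 called genes were among them. Large changes were mostly upward: 448 called genes were at least 8-fold higher and 40 at least 8-fold lower, while 2174 and 1200 passed 2-fold. The median log2 fold change over all genes tested was 0.044. Without injured library 1 the count of lower genes fell to 1451. In the text below, the counts for a gene list can be read against these percentages. In bulk tissue, fewer cells of a type and less RNA per cell cannot be told apart. CPM are shares of a library, so a level is always relative to the other genes of that library.

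Genes of the muscle stem cell lineage rose. Of 13 stem cell markers tested, 9 were higher and 0 lower. Their median log2 fold change was 1.23, beside 1.72 in young vehicle and 1.73 in aged NAM/PN mice. It was 1.74, with 10 markers higher, without contralateral libraries 4 and 5. Pax7, the marker of the stem cell itself, was at 21.5, 20.6 and 16.96 CPM in injured libraries 1, 2 and 3 and at 5.23, 6.38, 4.97, 5.86 and 3.85 CPM in contralateral libraries 1 to 5 (log2 fold change 1.91 ± 0.35 SE, adjusted p = 6.39e-05). Every injured library lay above every contralateral one, and the values within each leg were close. Vcam1, an adhesion protein of quiescent and activated stem cells that endothelium also makes, was at 49.4, 31.2 and 27.4 CPM against 4.98, 9.45, 3.97, 8.48 and 6.59 CPM (log2 fold change 2.42 ± 0.38 SE, adjusted p = 7.24e-06). Cxcr4, a chemokine receptor shared with leukocytes, was at 16.7, 15.7 and 12.1 CPM against 0.498, 1.65, 0.745, 1.82 and 1.65 CPM (log2 fold change 3.48 ± 0.58 SE, adjusted p = 1.62e-05). Fgfr4, a growth factor receptor of myoblasts, also rose without overlap (log2 3.02 ± 0.51, adjusted p = 1.77e-05), as did the laminin receptor subunit Itga7 (log2 1.17 ± 0.21, adjusted p = 3.83e-05). The receptor Calcr, a marker of quiescence, was below the filter on low counts.

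Among 17 myogenic regulators tested, Pax7 and Myf5 again included, 6 were higher and 2 lower, with a median of 0.36, and Pax3 was below the filter. Myog, which drives differentiation, changed most: it was at 89.7, 56.5 and 72.6 CPM in injured and 3.24, 2.13, 4.72, 5.45 and 5.49 CPM in contralateral muscle (log2 fold change 4.09 ± 0.61 SE, adjusted p = 4.15e-06). Myf5, expressed in dividing myoblasts, was low in both legs, at 3.98, 3.96 and 3.798 CPM against 0.249, 0.945, 1.24, 0.808 and 0 CPM (log2 fold change 2.59 ± 0.66 SE, adjusted p = 0.00187). Myod1, the regulator that commits cells to the muscle lineage, did not pass the test, and contralateral library 3 was above each injured library. Its values were 25.2, 18.1 and 24.1 CPM in injured and 5.23, 9.45, 25.3, 6.26 and 7.51 CPM in contralateral libraries (log2 fold change 1.07 ± 0.58 SE, adjusted p = 0.136), and it was called at 1.66 without contralateral library 3, at 1.13 with only the young NAM/PN libraries in the fit and at 1.34 by voom with quality weights. The repressors of differentiation Msc (log2 3.52 ± 0.41, adjusted p = 2.87e-07) and Id2 (log2 1.86 ± 0.32, adjusted p = 2.16e-05) rose, and so did Mef2a by a small amount (log2 0.53 ± 0.18, adjusted p = 0.0165), a call lost with the mouse as a block, without injured library 2 and without contralateral libraries 4 and 5. Mstn, the secreted inhibitor of muscle growth made by mature fibres, was at 1.51, 5.09 and 8.28 CPM against 31.6, 22.9, 30.3, 19.4 and 23.6 CPM (log2 fold change -2.36 ± 0.56 SE, adjusted p = 0.00103). Mef2d fell too (log2 fold change -0.59 ± 0.17 SE, adjusted p = 0.00511), although not without injured library 1, which left 1 member lower. Mef2c, Six4, Tead1, Tead4, Id1, Id3 and Myf6 were among those that did not pass.

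Mymk and Mymx, whose products fuse myoblasts, rose steeply. Of 16 fusion genes tested, 11 were higher and 1 lower, with a median of 1.07, and without injured library 1 the higher count was 7. Mymk, the membrane protein myomaker without which myoblasts do not fuse, was at 229, 199.8 and 172 CPM in injured and 2.99, 1.65, 0.248, 14.9 and 14.8 CPM in contralateral muscle (log2 fold change 4.803 ± 0.91 SE, adjusted p = 7.74e-05). Its micropeptide partner Mymx was at 17.1, 6.79 and 10.2 CPM against 0.249, 0.236, 0, 1.41 and 1.28 CPM (log2 fold change 4.000 ± 0.700 SE, adjusted p = 2.95e-05). In both genes contralateral libraries 4 and 5 were several times above the other 3, and without them the log2 fold changes were 6.92 and 5.93. Ccdc141 (log2 3.78 ± 0.43, adjusted p = 1.78e-07) and the ferlin Myof (log2 2.43 ± 0.36, adjusted p = 3.65e-06) rose as well. The GTPase Rac1 fell (log2 fold change -0.78 ± 0.24 SE, adjusted p = 0.00851).

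Developmental sarcomere genes held 3 of the 8 largest rises among genes with a mean of at least 10 CPM. Of 12 genes tested, 8 were higher and 0 lower, with a median of 2.44 beside 2.95 in young vehicle and 2.51 in aged NAM/PN mice. The median was 3.60, and 9 were higher, without contralateral libraries 4 and 5. Myh3, embryonic myosin (chromosome 11, 67078300 to 67102291, GRCm38), was at 960.1, 1589 and 772 CPM in injured libraries 1 to 3, and at 8.47, 4.72, 1.49, 101 and 66.3 CPM in contralateral libraries 1 to 5 (log2 fold change 4.91 ± 1.03 SE, adjusted p = 0.000275). Myh8, neonatal myosin, was at 2527, 3651 and 1457 CPM against 15.9, 14.2, 7.45, 173 and 113 CPM (log2 fold change 5.29 ± 1.07 SE, adjusted p = 0.000182). For both, the injured legs lay far above each contralateral one, but contralateral libraries 4 and 5 were at least 7 times above libraries 1, 2 and 3. Without libraries 4 and 5 the log2 fold changes were 7.81 and 7.66. The embryonic light chain Myl4 was at 608, 617 and 467 CPM against 14.4, 5.91, 8.45, 38.6 and 28.4 CPM (log2 fold change 4.87 ± 0.72 SE, adjusted p = 3.98e-06). Cardiac troponin T, Tnnt2, which embryonic skeletal muscle uses as well, was at 458, 382 and 341 CPM against 6.23, 7.796, 9.44, 40.8 and 30.9 CPM (log2 fold change 4.35 ± 0.71 SE, adjusted p = 1.24e-05). Myl6b, Actc1, Ankrd1 and Nes were the other 4 higher members (log2 3.34, 2.81, 2.07 and 1.74). Csrp3, a muscle LIM protein of the Z-disc, had 64.04, 146 and 296 CPM against 12.2, 2.13, 3.48, 123 and 107 CPM and was not called (log2 fold change 1.76 ± 0.96 SE, adjusted p = 0.142). It was called without contralateral libraries 4 and 5 (log2 4.83, adjusted p = 0.00161), with the mouse as a block (log2 3.64) and by both voom fits (log2 2.99 and 2.95). Without injured library 3, 1 member of the list was called lower.

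**Figure D1:**
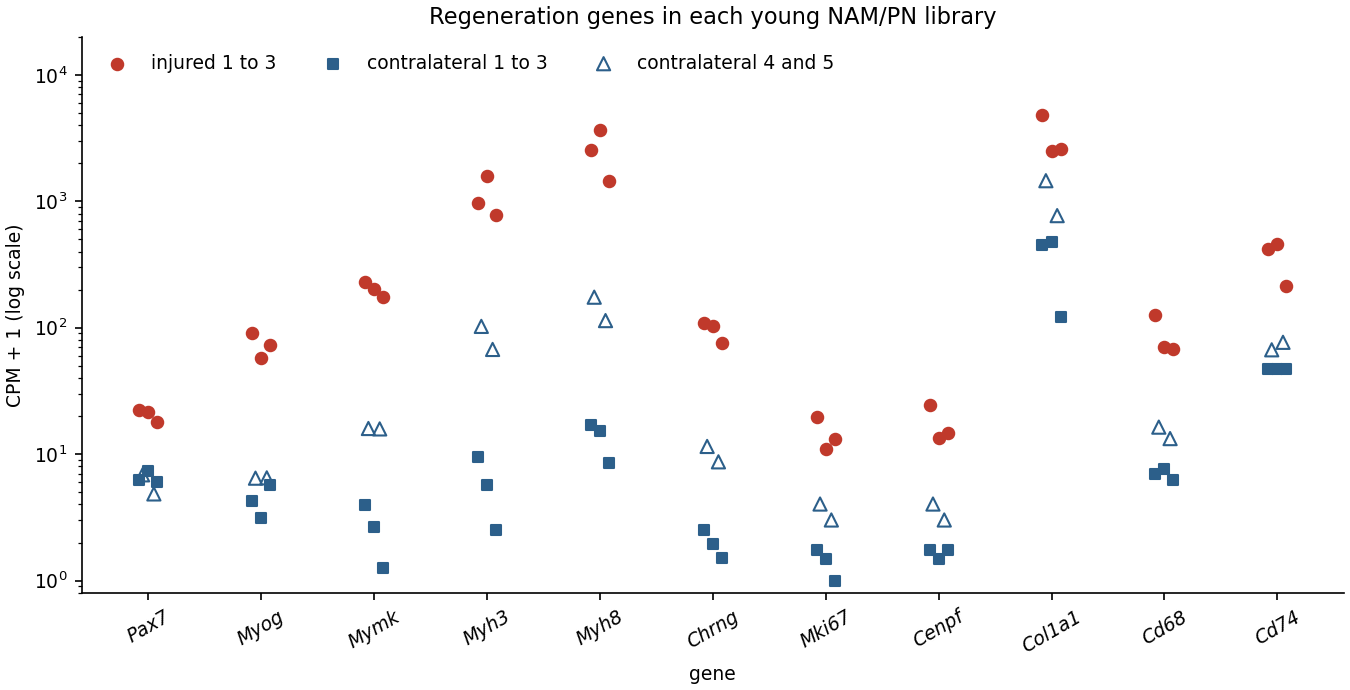
Levels of 11 genes of regeneration in the 8 young NAM/PN libraries, as CPM + 1 on a log axis, with 1 point per library. The 3 injured libraries lie above each contralateral library for every gene shown. The open triangles of contralateral libraries 4 and 5 lie between the injured and the other contralateral libraries for every gene except Pax7.

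The acetylcholine receptor, the pentamer that receives the nerve's signal, changes its subunits during development: the fetal form holds the gamma subunit (Chrng) and the adult form epsilon (Chrne). Of 12 genes of the receptor and the end plate, 5 rose and 1 fell, with a median of 0.28. Because E-boxes, the letters CAGCTG bound by MYOD and myogenin among other factors, are known in receptor subunit promoters, the 300-base RefSeq promoters (GRCm38.p6, 250 bases before to 50 after the annotated start) of a rising fetal subunit, a rising shared subunit and the falling adult subunit are printed, each 5′ to 3′ on its gene's strand with CAGCTG in capitals. Chrng lies at chr1:87205561-87205860 (plus strand), Chrna1 at chr2:73580289-73580588 (minus) and Chrne at chr11:70619145-70619444 (minus).
Chrng: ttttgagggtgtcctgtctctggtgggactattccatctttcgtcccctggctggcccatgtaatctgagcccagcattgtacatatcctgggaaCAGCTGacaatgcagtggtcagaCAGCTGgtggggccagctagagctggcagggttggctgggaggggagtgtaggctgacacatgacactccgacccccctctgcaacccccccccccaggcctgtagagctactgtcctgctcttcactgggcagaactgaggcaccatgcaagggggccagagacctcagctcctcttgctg
Chrna1: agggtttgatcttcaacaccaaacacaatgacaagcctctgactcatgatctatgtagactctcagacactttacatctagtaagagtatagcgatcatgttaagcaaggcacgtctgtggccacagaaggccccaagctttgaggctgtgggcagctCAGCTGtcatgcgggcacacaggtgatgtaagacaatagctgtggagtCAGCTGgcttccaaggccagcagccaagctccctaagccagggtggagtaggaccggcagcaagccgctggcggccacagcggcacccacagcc
Chrne: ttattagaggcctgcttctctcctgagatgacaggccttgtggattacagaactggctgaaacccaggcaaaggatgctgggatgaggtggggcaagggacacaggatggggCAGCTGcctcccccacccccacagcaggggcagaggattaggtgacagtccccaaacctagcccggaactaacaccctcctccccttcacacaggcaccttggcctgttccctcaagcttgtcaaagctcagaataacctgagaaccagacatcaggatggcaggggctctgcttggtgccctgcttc
The letters began at -155 and -132 from the start in Chrng, at -92 and -44 in Chrna1 and at -138 in Chrne. Searched on both strands, they stood in 4 of the 8 promoters found for 7 of the 12 genes, in 16.3% of the 32851 promoters of the table and in 18.1% of promoters of called higher genes. A match is a description of letters and not of binding, and the promoter of the falling subunit held them too.

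Chrng was at 107, 102 and 74.5 CPM in injured and 1.495, 0.945, 0.497, 10.5 and 7.69 CPM in contralateral muscle (log2 fold change 4.42 ± 0.88 SE, adjusted p = 0.000141), and without contralateral libraries 4 and 5 its log2 fold change was 6.56. Chrna1, the subunit that binds acetylcholine in both forms, was at 330.1, 251.4 and 315 CPM against 13.4, 25.04, 35.3, 33.3 and 31.7 CPM (log2 fold change 3.43 ± 0.57 SE, adjusted p = 1.47e-05). Chrnd rose likewise (log2 fold change 3.14 ± 0.499 SE, adjusted p = 8.89e-06), and Chrnb1 by less (log2 fold change 1.22 ± 0.27 SE, adjusted p = 0.000434). The adult subunit Chrne went the other way, at 5.897, 4.1 and 7.33 CPM against 8.47, 23.4, 11.4, 9.09 and 14.1 CPM (log2 fold change -1.198 ± 0.42 SE, adjusted p = 0.0209). That call rested on few reads and was lost with the mouse as a block and without contralateral library 2 or injured library 1 or 2. Chrne overlaps another gene in the annotation, and the strand setting of the counting is not given in the sources used here, so its reads cannot be told apart from those of its neighbour. Ncam1, an adhesion molecule of regenerating and denervated fibres, was at 698, 524 and 455 CPM against 31.1, 62.6, 32.5, 98.98 and 77.3 CPM (log2 fold change 3.204 ± 0.496 SE, adjusted p = 6.65e-06). The scaffold genes of the synapse did not pass: Musk, the receptor kinase that gathers the receptors, was at 8.502, 22.8 and 25.9 CPM against 26.7, 23.4, 22.1, 21.6 and 14.3 CPM (log2 fold change -0.18 ± 0.502 SE, adjusted p = 0.805), and Rapsn at 35.9, 28.8 and 36.4 CPM against 40.1, 41.3, 26.8, 36.2 and 37.9 CPM (log2 fold change -0.11 ± 0.17 SE, adjusted p = 0.612).

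A network of imprinted genes that act in fetal and postnatal growth rose almost as a whole: 13 of 14 tested members were higher, 0 lower and 1 not called, with a median of 3.03, beside 3.12 in young vehicle and 3.15 in aged NAM/PN mice. Igf2, a fetal growth factor, was at 21.1, 28.6 and 21.98 CPM against 0.498, 0, 0.248, 1.82 and 0.915 CPM (log2 fold change 4.98 ± 0.54 SE, adjusted p = 9.20e-08). Cdkn1c, an inhibitor of the cell cycle that differentiating myoblasts use, was at 551, 510.3 and 347 CPM against 68.5, 76.8, 66.3, 77.98 and 74.2 CPM (log2 fold change 2.69 ± 0.33 SE, adjusted p = 3.82e-07). Grb10, an adaptor that damps insulin receptor signalling (log2 3.05 ± 0.37, adjusted p = 3.82e-07), and Peg10 (log2 4.27 ± 0.52, adjusted p = 3.82e-07) also rose without overlap. The noncoding RNA H19, named after its values were seen, reached 11260, 15390 and 7565 CPM against 652, 1509, 355, 2309 and 2108 CPM (log2 fold change 3.04 ± 0.48 SE, adjusted p = 9.39e-06). Phlda2 was below the filter, and 1 further member has no row in the table.

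Adult fast fibre genes fell together. Of 21 fast sarcomere genes tested, 0 were higher and 17 lower, with a median of -1.503, beside -1.86 in young vehicle and -2.195 in aged NAM/PN mice. Tnni2, fast troponin I, was at 3042, 4228 and 4595 CPM in injured and 20540, 18810, 18020, 13820 and 14960 CPM in contralateral muscle (log2 fold change -2.12 ± 0.28 SE, adjusted p = 9.14e-07). Mylk2, the kinase of the myosin light chain, was at 56.4, 114 and 105 CPM against 1012, 867, 626, 468 and 423 CPM (log2 fold change -2.89 ± 0.41 SE, adjusted p = 2.62e-06). Myoz1, a Z-disc protein of fast fibres (log2 -1.76 ± 0.26, adjusted p = 3.11e-06), and Tnnc2, fast troponin C (log2 -1.82 ± 0.27, adjusted p = 4.22e-06), fell too, and Tnnc2 overlaps the mitotic gene Ube2c. Of 20 genes of excitation and calcium release, 16 fell and 1 rose, with a median of -1.25. Pvalb, the calcium buffer of fast fibres, was at 2165, 3185 and 2948 CPM against 23180, 21070, 16330, 10790 and 12980 CPM (log2 fold change -2.61 ± 0.51 SE, adjusted p = 0.000106), and the calcium pump Atp2a1 at 2988, 4478 and 4838 CPM against 20830, 21490, 15990, 12310 and 13400 CPM (log2 fold change -2.04 ± 0.29 SE, adjusted p = 2.02e-06). The gene that rose was Sln, sarcolipin, a small inhibitor of that pump, at 176, 178 and 93.9 CPM against 9.22, 23.9, 31.1, 14.5 and 8.97 CPM (log2 fold change 3.096 ± 0.63 SE, adjusted p = 0.000196).

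The 4 adult myosin heavy chains, named after their values were seen, did not move alike. Myh4, the IIB chain that dominates mouse gastrocnemius, was at 8926, 13610 and 13340 CPM in injured and 58530, 60860, 46680, 31000 and 29220 CPM in contralateral muscle (log2 fold change -1.92 ± 0.36 SE, adjusted p = 8.16e-05), with every injured leg below every contralateral one. Myh1, the IIX chain, was at 652, 949 and 1433 CPM against 413, 585, 179.6, 1802 and 1293 CPM (log2 fold change 0.24 ± 0.601 SE, adjusted p = 0.777). Myh2, the IIA chain, was at 40.7, 294 and 1642 CPM against 359.5, 17.9, 87.4, 3602 and 3148 CPM (log2 fold change -1.13 ± 1.23 SE, adjusted p = 0.484), and slow myosin Myh7 at 0.823, 5.23 and 24.4 CPM against 39.4, 1.18, 0.248, 159 and 76.9 CPM (log2 fold change -2.44 ± 1.71 SE, adjusted p = 0.259). Myh2 and Myh7 spread widely between mice in both legs and Myh1 in the contralateral leg, and the legs overlapped for all 3. The mouse of injured library 3 and contralateral library 4 had the highest Myh2 of its leg in both legs, and the mouse of injured library 1 and contralateral library 2 the lowest. Without contralateral libraries 4 and 5, which held the highest Myh2, Myh1 and Myh7, the log2 fold change of Myh2 was 2.09 in place of -1.13 and was not called.

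**Figure D2:**
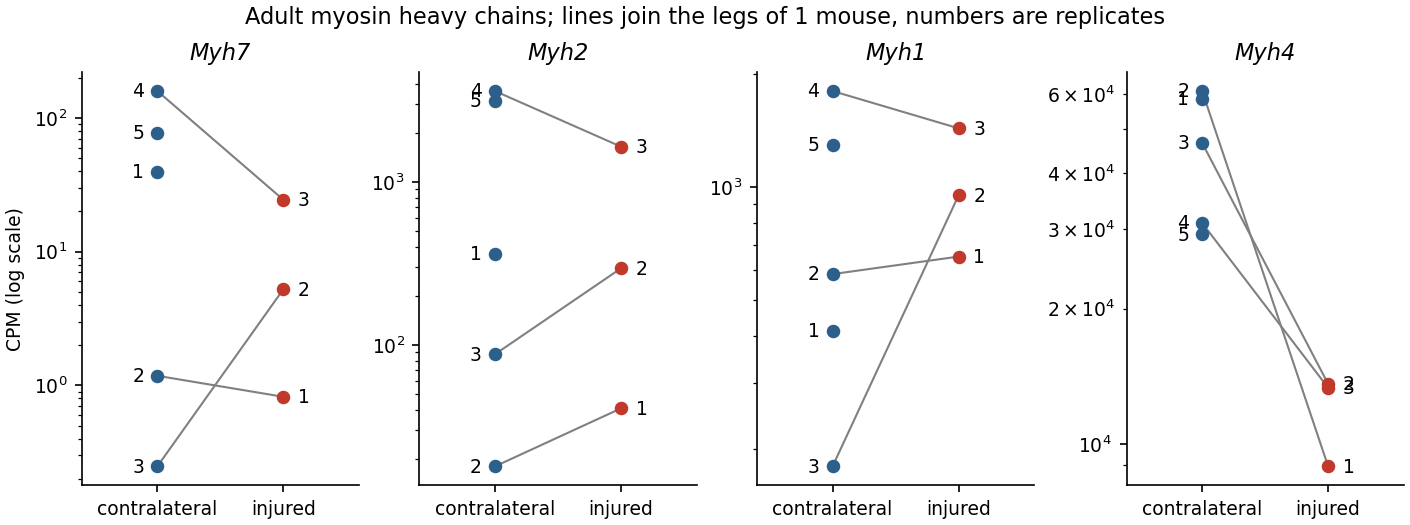
Levels of the 4 adult myosin heavy chains in each young NAM/PN library, in CPM on log axes that differ between panels, with lines joining the 2 legs of the 3 mice that gave both. Myh4 falls in all 3 mice, whereas Myh7 and Myh2 spread widely between mice in both legs and Myh1 in the contralateral leg.

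Slow sarcomere genes followed the same libraries. Of 12 tested, 2 were higher and 0 lower, with a median of 0.802, and the higher count was 7 without contralateral libraries 4 and 5 and 5 without library 4 alone, while without injured library 3, 2 members were lower. In young vehicle mice the median was -0.105 and in aged NAM/PN mice -0.28. Casq2, the slow and cardiac calsequestrin, was at 427, 607 and 360.2 CPM against 12.2, 6.85, 5.46, 83.8 and 69.03 CPM (log2 fold change 3.700 ± 0.65 SE, adjusted p = 2.87e-05), and Tnni1, the slow troponin I that fetal muscle shares, at 277, 290.3 and 233 CPM against 10.2, 0.236, 0.745, 61.8 and 31.3 CPM (log2 fold change 3.66 ± 0.95 SE, adjusted p = 0.00227). Both were below 13 CPM in contralateral libraries 1 to 3, and without libraries 4 and 5 their log2 fold changes were 5.83 and 6.16. Tnnt1, slow troponin T, was at 488, 736 and 425 CPM against 60.8, 5.43, 1.99, 306 and 172 CPM and was not called (log2 fold change 2.33 ± 1.08 SE, adjusted p = 0.0828), although its legs did not overlap, and it was called without contralateral library 4 (log2 3.18), without libraries 4 and 5 (log2 4.59, adjusted p = 0.00784) and by both voom fits.

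Energy metabolism of the mature fibre fell, and its non-muscle counterparts rose. Of 23 genes of glycolysis and glycogen use, 20 fell and 0 rose, with a median of -1.55. Hk2, the hexokinase of insulin-responsive tissue, was at 71.03, 140.3 and 202 CPM against 560.3, 507, 521, 548 and 598 CPM (log2 fold change -1.99 ± 0.29 SE, adjusted p = 3.60e-06). Aldoa, muscle aldolase (log2 -1.79 ± 0.27, adjusted p = 4.39e-06), and Pfkm, muscle phosphofructokinase (log2 -1.59 ± 0.24, adjusted p = 4.72e-06), fell as well. Of 9 isoforms used outside muscle, 5 rose and 0 fell, among them Hk1 at 31.5, 40.7 and 22.2 CPM against 10.7, 7.796, 6.96, 12.3 and 10.1 CPM (log2 fold change 1.71 ± 0.28 SE, adjusted p = 1.26e-05) and Eno1 (log2 1.29 ± 0.37, adjusted p = 0.00578). The same exchange was seen in the 8 creatine and adenylate kinase genes, with 3 higher and 5 lower. Ckm fell (log2 fold change -2.22 ± 0.31 SE, adjusted p = 2.12e-06), and Ckb, the form of brain and dividing cells, was at 87.6, 61.9 and 61.6 CPM against 5.98, 5.197, 7.203, 14.5 and 13 CPM (log2 fold change 2.92 ± 0.35 SE, adjusted p = 2.87e-07). Gamt (log2 2.33) and Gatm (log2 3.37), which make creatine, also rose (adjusted p = 1.78e-07 and 3.81e-05). Without injured library 1, or without contralateral libraries 4 and 5, the lower count of these 8 was 3.

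Mitochondrial genes fell in both genomes, the nuclear ones less firmly. Transcripts of the mitochondrial genome took 11.03% ± 3.48 (SD, n = 3) of counts in injured and 22.85% ± 4.12 (SD, n = 5) in contralateral muscle, a difference of -11.82 percentage points (two-sided exact permutation p = 0.0357, the smallest the 56 splits of 3 against 5 allow). Each injured library, at 8.41%, 9.70% and 15.0%, was below each contralateral one. Of the 13 protein genes of this genome, 9 passed the filter and 6 of these fell, with a median of -1.804. mt-Nd4, a complex I subunit, was at 34450, 42650 and 68570 CPM against 165900, 159800, 126700, 198700 and 196500 CPM (log2 fold change -1.804 ± 0.32 SE, adjusted p = 3.62e-05), and mt-Co1, the catalytic subunit of complex IV, at 428, 628 and 1268 CPM against 3180, 2518, 2000, 3826 and 3597 CPM (log2 fold change -1.96 ± 0.32 SE, adjusted p = 1.19e-05). The members listed near 0, such as mt-Co3, are genes every cell uses, so a level near 0 in this table does not show that a gene is silent. Of 70 nuclear subunits of the respiratory chain, 44 fell and 0 rose, with a median of -0.76. That count was 29 with the mouse as a block, 29 without injured library 1 and 26 without contralateral libraries 4 and 5. Cox6a2, a muscle form of a complex IV subunit, was at 521, 674 and 1129 CPM against 2999, 2417, 1952, 2850 and 2613 CPM (log2 fold change -1.73 ± 0.29 SE, adjusted p = 2.16e-05), and Cox8b (log2 -1.69 ± 0.27, adjusted p = 8.89e-06) and Ndufb2 (log2 -1.46 ± 0.23, adjusted p = 7.24e-06) fell.

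In the tricarboxylic acid cycle 9 of 20 genes fell and 0 rose, with a median of -0.84, and 14 fell when only the 8 young NAM/PN libraries were fitted. Among them were Sucla2 (log2 fold change -1.21 ± 0.205 SE, adjusted p = 1.97e-05), Suclg1 (log2 fold change -0.996 ± 0.17 SE, adjusted p = 3.03e-05) and the complex II subunit Sdha (log2 fold change -0.79 ± 0.16 SE, adjusted p = 0.000228). Fatty acid oxidation was less stable: 10 of 21 genes fell and 0 rose, with a median of -0.75, but the count was 6 with the mouse as a block, 4 without contralateral library 4 or 5, 3 without injured library 1 or 2 and 1 without both contralateral libraries 4 and 5. Acadvl, which starts the oxidation of long-chain fatty acids, was at 60.5, 83.6 and 111 CPM against 146, 132, 117, 239.8 and 208 CPM (log2 fold change -0.99 ± 0.25 SE, adjusted p = 0.00179). The contralateral libraries 4 and 5 held the highest levels. Of 10 regulators of mitochondria tested, 3 fell and 0 rose, although 1 rose without contralateral library 4. Perm1, a muscle coactivator of oxidative genes, was at 12.3, 32.8 and 83.7 CPM against 156, 102, 72.8, 277 and 235 CPM (log2 fold change -1.97 ± 0.57 SE, adjusted p = 0.00548), a call lost without injured library 1 or without contralateral libraries 4 and 5, each of which left 1 regulator lower.

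Genes of NAD metabolism, through which the given NAM is used, moved in both directions. Of 24 tested, 5 were higher, 6 lower and 13 not called, with a median of -0.14, beside -0.19 in young vehicle and 0.14 in aged NAM/PN mice. Over all genes tested 22.4% were higher and 18.1% lower, so the list was called about as often as genes in general. Sarm1, Nt5e and Sirt4 were below the filter. Nmrk2, the nicotinamide riboside kinase of muscle fibres, changed most, from 319, 568.4, 468, 307 and 281 CPM in contralateral to 31.1, 61.4 and 50.1 CPM in injured libraries (log2 fold change -3.03 ± 0.54 SE, adjusted p = 3.59e-05). Nampt, the rate-limiting enzyme that salvages NAM, was at 34.6, 33.5 and 67.3 CPM against 83.96, 87.6, 88.7, 98.2 and 81.1 CPM (log2 fold change -0.96 ± 0.297 SE, adjusted p = 0.00944), with no overlap, and was not called without injured library 1 or 2. Nmnat1, the nuclear enzyme of the next step, was at 3.98, 6.64 and 10.8 CPM against 9.72, 11.8, 11.9, 10.3 and 17.6 CPM (log2 fold change -0.78 ± 0.27 SE, adjusted p = 0.0198). Nmrk1 (log2 fold change -0.81 ± 0.31 SE, adjusted p = 0.0337), the deacetylase Sirt2 (log2 fold change -0.61 ± 0.23 SE, adjusted p = 0.0328) and Aox1, which oxidises N-methylnicotinamide and pyridoxal (log2 fold change -1.37 ± 0.32 SE, adjusted p = 0.000788), were the other lower members. Among the 5 that rose, Nnmt, which methylates NAM for excretion, was at 6.03, 4.52 and 3.39 CPM against 0, 0.472, 2.98, 3.03 and 0.732 CPM (log2 fold change 1.67 ± 0.56 SE, adjusted p = 0.0175), and Bst1, an NAD-consuming ectoenzyme, at 2.19, 0.9897 and 1.76 CPM against 0, 0, 0, 0.808 and 0.549 CPM (log2 fold change 2.37 ± 0.802 SE, adjusted p = 0.0174). Both stayed under 7 CPM in every library. Nmnat2, Sirt7 and Parp2 were the other 3 (log2 1.93, 0.76 and 1.06, adjusted p = 0.0146, 0.0298 and 0.0171).

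These calls were not firm as a group. With the mouse as a block 1 NAD gene was higher and 3 were lower, without injured library 1 the counts were 0 and 3, without injured library 2 the lower count was 2, and without contralateral libraries 4 and 5, or with only the young NAM/PN libraries in the fit, the higher count was 3. Nmrk2 and Aox1 kept their calls under each of the 20 alternatives. Nampt, Nmnat1, Sirt2, Sirt7 and Bst1 each overlap another gene in the annotation. Without contralateral libraries 4 and 5, Nmnat1, Sirt7 and Parp2 were not called. Without a single library, calls were lost for Nmrk1 (contralateral 1 or 2, injured 2 or 3), Sirt2 (contralateral 2 or 3, injured 1 or 2), Nmnat1 (contralateral 5, injured 1 or 2), Sirt7 (contralateral 2 or 4, injured 1), Parp2 (injured 1 or 3) and Nnmt, Nmnat2 and Bst1 (injured 1). Parp1, the main consumer of NAD in DNA repair, had a log2 fold change of -0.297 ± 0.15 and was not called (adjusted p = 0.115), but it was called lower without contralateral library 5 (log2 -0.41) and without libraries 4 and 5 (log2 -0.499). In the pyridoxine pathway, which shares Aox1 with the NAD list, 3 of 6 genes fell and 1 rose, with a median of -0.62. Pdxk, the kinase that phosphorylates PN, was at 18.9, 19.6 and 16.4 CPM against 8.97, 11.1, 6.96, 12.7 and 13.2 CPM (log2 fold change 0.78 ± 0.25 SE, adjusted p = 0.0105), a call lost with the mouse as a block. The phosphatase Alpl fell (log2 fold change -1.62 ± 0.57 SE, adjusted p = 0.0214), though not without injured library 1 or 2, contralateral library 5, or contralateral libraries 4 and 5 together. Pdxp and Plpbp were not called. For each of these NAD and B6 genes the difference from the response of young vehicle mice did not pass the test.

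**Figure D3:**
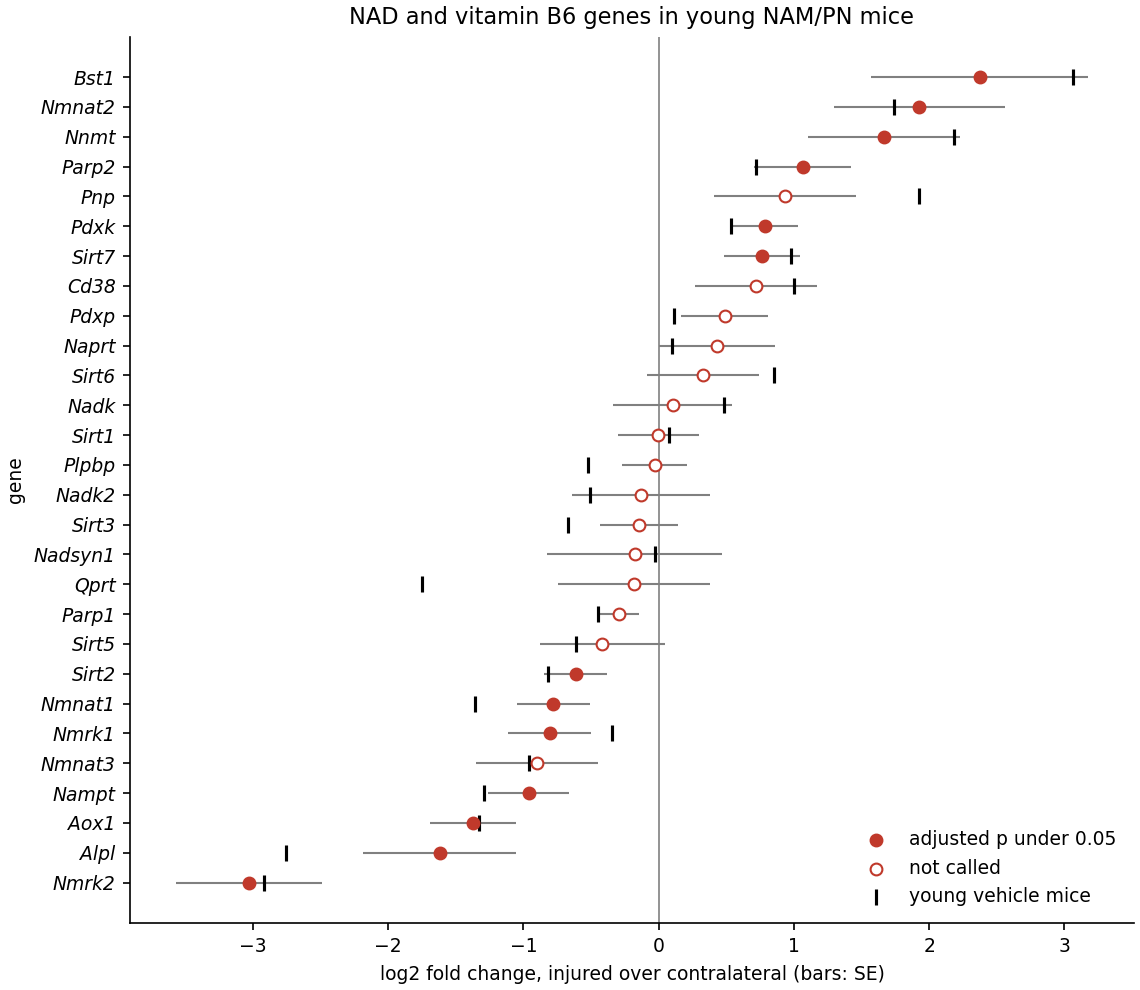
Log2 fold changes of NAD and vitamin B6 genes in young NAM/PN mice, injured over contralateral, with SE bars, filled circles for genes with an adjusted p under 0.05 and black ticks for the same fold change in young vehicle mice. Nmrk2 is the lowest point at -3.03, and for each filled circle the vehicle mark lies on the same side of 0.

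Clock output genes fell: of 15 circadian genes, 10 were lower and 0 higher, with a median of -1.304. The transcription factors Hlf, at 3.29, 6.79 and 6.65 CPM against 27.2, 29.8, 41.5, 20.8 and 16.9 CPM (log2 fold change -2.28 ± 0.34 SE, adjusted p = 3.85e-06), and Tef (log2 -1.32 ± 0.21, adjusted p = 1.01e-05) fell, and so did Nr1d2 (log2 -1.45 ± 0.19, adjusted p = 1.05e-06) and Nr1d1 (log2 -1.75 ± 0.33, adjusted p = 8.11e-05). Nr1d1 overlaps Thra. In this list 1 gene was called higher without contralateral library 5, without contralateral libraries 4 and 5 together and with the mouse as a block. All libraries were collected on the same day after injury, and the hour of collection is not given in the sources used here.

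Cell division genes rose strongly. Of 32 mitosis genes tested, 30 were higher and 1 lower, with a median of 3.36, beside 4.63 in young vehicle and 4.27 in aged NAM/PN mice, and Mybl2 was below the filter. The promoters of many mitotic genes carry CCAAT boxes and the letters TTTGAA, the cell cycle homology region. The promoters of 2 rising members and of the 1 that fell are printed as above, with both motifs in capitals (ATTGG is CCAAT on the other strand). Plk1 lies at chr7:122159185-122159484 (plus strand), Cdca8 at chr4:124936868-124937167 (minus) and Aurka at chr2:172370521-172370820 (minus).
Plk1: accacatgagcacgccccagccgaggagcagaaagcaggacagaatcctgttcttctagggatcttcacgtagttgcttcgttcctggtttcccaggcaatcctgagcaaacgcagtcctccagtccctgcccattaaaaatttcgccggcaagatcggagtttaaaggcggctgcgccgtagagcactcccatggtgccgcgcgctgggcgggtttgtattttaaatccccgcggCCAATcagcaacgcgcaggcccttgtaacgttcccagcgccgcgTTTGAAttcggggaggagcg
Cdca8: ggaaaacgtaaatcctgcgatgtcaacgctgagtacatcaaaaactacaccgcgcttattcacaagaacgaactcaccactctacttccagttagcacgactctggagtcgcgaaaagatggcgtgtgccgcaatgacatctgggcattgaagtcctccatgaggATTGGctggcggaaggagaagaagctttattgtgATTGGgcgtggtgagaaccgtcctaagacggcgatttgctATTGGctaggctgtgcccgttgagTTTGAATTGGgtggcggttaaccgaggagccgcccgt
Aurka: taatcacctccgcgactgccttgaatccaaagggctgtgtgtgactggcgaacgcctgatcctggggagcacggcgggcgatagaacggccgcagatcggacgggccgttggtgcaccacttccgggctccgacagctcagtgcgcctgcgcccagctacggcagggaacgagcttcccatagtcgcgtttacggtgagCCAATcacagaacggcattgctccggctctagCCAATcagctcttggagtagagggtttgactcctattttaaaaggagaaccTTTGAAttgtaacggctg
In Cdca8 the last CCAAT box overlaps TTTGAA. Searched on both strands, CCAAT stood in 24 of the 30 promoters of 28 mitosis genes (80.0%), beside 37.4% of all promoters and 36.1% of promoters of called higher genes. TTTGAA stood in 23 of the 30 (76.7%), beside 17.9% and 13.4%. The letters TATAAA stood in 0 of the 30, beside 13.6% of all promoters, 7.64% of promoters of genes tested and 9.35% of promoters of called higher genes. Aurka, which fell, held both motifs.

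Plk1, a kinase of mitotic entry, was at 16.6, 7.07 and 9.09 CPM in injured and 0, 0.709, 0.248, 1.01 and 0.732 CPM in contralateral muscle (log2 fold change 4.21 ± 0.58 SE, adjusted p = 1.43e-06). Cdca8, a subunit of the chromosomal passenger complex, was at 11.9, 8.2 and 6.92 CPM against 0.997, 0.709, 0.248, 1.21 and 0.915 CPM (log2 fold change 3.403 ± 0.53 SE, adjusted p = 7.39e-06), and it overlaps another gene. Cenpf, a kinetochore protein, was at 23.3, 12.3 and 13.6 CPM against 0.747, 0.472, 0.745, 3.03 and 2.01 CPM (log2 fold change 3.46 ± 0.47 SE, adjusted p = 1.31e-06), and Mki67, named after its values were seen, at 18.5, 9.897 and 12.1 CPM against 0.747, 0.472, 0, 3.03 and 2.01 CPM (log2 fold change 3.32 ± 0.72 SE, adjusted p = 0.000412). In Cenpf and Mki67 contralateral libraries 4 and 5 were the highest of their leg, and without them the log2 fold changes were 4.602 and 4.97. Ccna2 rose from few counts (log2 4.74 ± 0.72, adjusted p = 5.37e-06). Aurka, an activator of Plk1, was at 3.703, 1.41 and 2.85 CPM against 9.22, 5.43, 8.94, 5.45 and 5.13 CPM (log2 fold change -1.34 ± 0.43 SE, adjusted p = 0.0124), a call lost with the mouse as a block or without injured library 2. Of 32 DNA replication genes, 18 rose and 1 fell, with a median of 1.07, and the higher count was 10 with the mouse as a block. The helicase subunit Mcm3 was at 16.04, 9.47 and 11.1 CPM against 4.98, 3.07, 3.48, 3.84 and 4.76 CPM (log2 fold change 1.59 ± 0.24 SE, adjusted p = 4.76e-06), and Mcm6 (log2 1.82 ± 0.35) and the ligase Lig1 (log2 1.901 ± 0.37) rose (adjusted p = 0.000111 and 0.00011). Rfc4, the member that fell (log2 fold change -1.22 ± 0.41 SE, adjusted p = 0.0176), overlaps Eif4a2, and was not called without contralateral library 4, without contralateral libraries 4 and 5 together or without injured library 1 or 2. Of 15 cell cycle inhibitors and p53 targets, 5 rose, 2 fell and 8 were not called. Cdkn1a, the p53 target p21, was at 545, 476 and 476 CPM against 33.4, 21.97, 36.02, 61.6 and 73.2 CPM (log2 fold change 3.46 ± 0.44 SE, adjusted p = 6.07e-07), and Cdkn2a at 9.19, 1.27 and 9.496 CPM against 0.249, 0.709, 0.248, 0 and 1.099 CPM (log2 fold change 3.73 ± 0.74 SE, adjusted p = 0.000132). Ccng1, another p53 target, fell (log2 fold change -1.21 ± 0.23 SE, adjusted p = 6.19e-05).

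Matrix genes rose. Of 14 fibrillar and associated collagens, 13 were higher and 0 lower, with a median of 2.38 beside 3.23 in young vehicle and 3.202 in aged NAM/PN mice. Col5a2, which starts collagen fibrils, was at 172, 122 and 127 CPM against 11.7, 18.7, 12.2, 36.6 and 28.9 CPM (log2 fold change 2.69 ± 0.36 SE, adjusted p = 9.96e-07), and Col5a1 (log2 2.51 ± 0.36, adjusted p = 2.71e-06) and Col14a1 (log2 2.76 ± 0.44, adjusted p = 8.81e-06) rose. Col1a1, named after its values were seen, was at 4774, 2480 and 2595 CPM against 450.4, 475, 120.0, 1453 and 769 CPM (log2 fold change 2.33 ± 0.57 SE, adjusted p = 0.00144). Contralateral library 4 came closest to the injured legs for Col1a1 and Fn1, and without libraries 4 and 5 the log2 fold change of Col1a1 was 3.23. Glycoproteins and proteoglycans had 19 of 24 genes higher and 0 lower. Spp1, osteopontin, made by macrophages and myoblasts, was at 70.6, 5.37 and 37.3 CPM against 0, 0.236, 0.248, 2.02 and 2.01 CPM (log2 fold change 5.23 ± 0.74 SE, adjusted p = 2.40e-06), with the injured legs themselves spread over more than 10-fold. Fibronectin, Fn1, was at 586, 411 and 277 CPM against 36.9, 33.8, 29.8, 137 and 95.95 CPM (log2 fold change 2.67 ± 0.42 SE, adjusted p = 8.78e-06). Of 17 collagen processing genes 11 rose and 0 fell, among them the crosslinking oxidase Lox (log2 2.92 ± 0.41, adjusted p = 1.85e-06) and the folding helper Fkbp10 (log2 2.41 ± 0.28, adjusted p = 2.21e-07). Of 25 proteases and inhibitors 19 rose and 2 fell, and the rises were led by p by Adamts4, an aggrecanase that overlaps another gene in the annotation (log2 4.14 ± 0.52, adjusted p = 5.55e-07). The membrane protease Mmp14 was at 239.7, 123 and 159 CPM against 29.9, 34.7, 27.3, 40.6 and 28.2 CPM (log2 fold change 2.43 ± 0.33 SE, adjusted p = 1.31e-06), and Timp4, an inhibitor of such proteases, at 1.65, 3.96 and 15.9 CPM against 36.9, 36.9, 31.3, 47.9 and 51.1 CPM (log2 fold change -2.51 ± 0.499 SE, adjusted p = 0.000143). Of 17 markers of fibro-adipogenic progenitors, 6 rose and 0 fell, with a median of 0.51, and 1 fell without injured library 2. Pdgfra, their defining receptor, was at 17.8, 17.4 and 16.3 CPM against 5.98, 9.92, 8.197, 9.49 and 8.06 CPM (log2 fold change 1.04 ± 0.24 SE, adjusted p = 0.000754).

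Macrophage RNA was high. Of 22 markers tested, 18 were higher and 0 lower, with a median of 3.14, beside 4.301 in young vehicle and 3.64 in aged NAM/PN mice. Cd68, a lysosomal membrane protein, was at 125, 69.1 and 66.3 CPM against 5.98, 6.62, 5.22, 15.3 and 12.3 CPM (log2 fold change 3.24 ± 0.57 SE, adjusted p = 3.05e-05), and the pore protein Mpeg1 at 43.9, 37.6 and 33.6 CPM against 1.495, 1.18, 0.994, 5.05 and 2.93 CPM (log2 fold change 3.98 ± 0.64 SE, adjusted p = 9.98e-06). The mannose receptor Mrc1, of reparative macrophages, was at 61.6, 38.03 and 36.9 CPM against 7.72, 9.21, 8.197, 8.08 and 8.06 CPM (log2 fold change 2.46 ± 0.300 SE, adjusted p = 3.82e-07), and Lgals3 at 450.3, 322 and 259 CPM against 13.4, 11.3, 10.4, 37.2 and 38.1 CPM (log2 fold change 3.95 ± 0.62 SE, adjusted p = 8.29e-06). All 4 separated the legs, with injured library 1 the highest. Of 24 lysosome and phagocytosis genes 17 rose and 0 fell, such as the lipase Lipa (log2 2.52 ± 0.38, adjusted p = 4.49e-06), and Apoe reached 4192, 3405 and 2230 CPM against 261, 326, 241, 464 and 434 CPM (log2 fold change 3.25 ± 0.49 SE, adjusted p = 4.22e-06). The complement genes C1qa, C1qb and C1qc, paralogs whose reads may be shared, rose side by side (log2 2.83, 2.87 and 2.93), in a list with 9 of 17 higher and 0 lower, or 1 lower without contralateral library 1 or 3 or injured library 3.

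Among 22 chemokines and receptors 18 rose and 1 fell, with a median of 3.21. The 1 that fell was not called with the mouse as a block or without contralateral library 3 or 5 or injured library 1, 2 or 3. When contralateral libraries 4 and 5 were both left out, 16 rose and 0 fell. Ccl8 was at 67.7, 43.5 and 26.6 CPM against 3.74, 0.945, 2.98, 6.26 and 5.49 CPM (log2 fold change 3.53 ± 0.61 SE, adjusted p = 2.80e-05) and Cxcl16 at 50.2, 37.3 and 27.3 CPM against 4.24, 1.18, 1.24, 5.45 and 8.06 CPM (log2 fold change 3.198 ± 0.49 SE, adjusted p = 4.99e-06). Of 15 genes of antigen presentation and dendritic cells 13 rose and 0 fell. The invariant chain Cd74 was at 418, 459 and 213 CPM against 46.1, 46.1, 45.95, 65.8 and 75.6 CPM (log2 fold change 2.697 ± 0.34 SE, adjusted p = 5.21e-07), and the class II gene H2-Ab1 rose by 2.53 ± 0.34 on the log2 scale (adjusted p = 1.12e-06). Interferon-stimulated genes rose in 20 of 22 cases, with 0 lower and a median of 1.82. The antiviral GTPase Mx1 was at 4.39, 4.1 and 5.29 CPM against 0.249, 0, 0, 0.202 and 0.366 CPM (log2 fold change 4.54 ± 0.96 SE, adjusted p = 0.000288), and Ddx58, the RNA sensor RIG-I, rose by 1.903 ± 0.29 (adjusted p = 4.55e-06). Lymphocyte markers were near the limit of detection. Of 18 T and natural killer cell genes 11 were below the filter, among them Cd3e, Cd3d, Cd3g and Cd8a, and 6 of the other 7 rose, or 3 with only the young NAM/PN libraries in the fit, such as Cd4, which macrophages can also carry, at 4.8, 2.97 and 2.17 CPM against 0, 0, 0, 0.202 and 0.183 CPM (log2 fold change 4.92 ± 0.76 SE, adjusted p = 5.98e-06). Il2rb had 0 counts in each contralateral library and 1.78, 2.97 and 1.63 CPM in the injured ones. Of 12 neutrophil markers 7 were below the filter, Ly6g was at 0 in each of the 8 libraries, and the 1 that rose, Csf3r, was at 0.548, 1.13 and 0.814 CPM against 0.249, 0, 0, 0 and 0 CPM (log2 fold change 3.65 ± 0.999 SE, adjusted p = 0.00417).

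Vessel, blood and fat genes were lower or mixed. Of 17 endothelial markers 6 fell and 2 rose, with a median of -0.57. Aqp1, a water channel of capillaries, was at 104, 125 and 128 CPM against 366, 293, 231, 310.1 and 358 CPM (log2 fold change -1.39 ± 0.27 SE, adjusted p = 0.000123), and the VEGF receptor Flt1 fell (log2 fold change -1.22 ± 0.27 SE, adjusted p = 0.000532). Apln, a peptide of growing tip cells, rose from 0.997, 2.599, 0.497, 1.01 and 2.01 CPM to 4.66, 5.797 and 3.798 CPM (log2 fold change 1.71 ± 0.49 SE, adjusted p = 0.00546). The lower count was 2 without injured library 1 and 3 without contralateral libraries 4 and 5, and the higher count was 1 with the mouse as a block and without any 1 of injured libraries 1, 2 and 3 or of contralateral libraries 2, 3 and 5. All 5 erythroid genes tested fell, with a median of -1.395, but 2 with the mouse as a block, 3 without contralateral library 5, 1 without injured library 1 and 0 without contralateral libraries 4 and 5. The paralogs Hba-a1, Hba-a2, Hbb-bs and Hbb-bt may share reads. Hbb-bs, adult beta globin, was at 45.1, 122 and 83.97 CPM against 194, 145, 182, 260.4 and 395 CPM (log2 fold change -1.49 ± 0.53 SE, adjusted p = 0.0244). The heme enzyme gene Alas2 was at 1.097, 2.54 and 2.98 CPM against 5.98, 5.91, 2.24, 7.68 and 10.2 CPM (log2 fold change -1.54 ± 0.42 SE, adjusted p = 0.00372). Of 8 adipocyte genes 2 fell, Plin4, which fibres also express (log2 fold change -2.91 ± 0.48 SE, adjusted p = 1.43e-05), and Car3 (log2 fold change -1.39 ± 0.48 SE, adjusted p = 0.0214), and Car3 was not called with the mouse as a block or without injured library 1 or contralateral library 1. Of 6 tendon genes 2 rose, Thbs4 at 388, 154 and 312 CPM against 50.3, 39.7, 51.4, 161 and 105 CPM (log2 fold change 1.801 ± 0.53 SE, adjusted p = 0.00682) and Scx (log2 1.701 ± 0.58, adjusted p = 0.0186), and 0 rose without injured library 1 and only 1 without contralateral libraries 4 and 5 or with the mouse as a block, where Scx was not called.

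Wnt with β-catenin and insulin with AKT are signals that steer the division, differentiation and growth of muscle cells, and bulk transcript levels of their genes do not measure protein activation. Of 25 Wnt and β-catenin genes tested, 5 rose and 2 fell, with a median of -0.16, and 8, including Lef1, Tcf7 and Myc, were below the filter. Ccnd1, a target that drives cell cycle entry, was at 36.5, 29.97 and 40.8 CPM against 12.5, 7.56, 11.4, 17.4 and 13.6 CPM (log2 fold change 1.51 ± 0.23 SE, adjusted p = 4.99e-06). The secreted antagonists Sfrp1 (log2 fold change 2.35 ± 0.41 SE, adjusted p = 2.70e-05) and Sfrp2 (log2 fold change 3.55 ± 0.62 SE, adjusted p = 2.95e-05) rose, and the ligand Wnt4 was at 1.65, 3.68 and 4.34 CPM against 31.9, 44.4, 50.7, 14.5 and 15.8 CPM (log2 fold change -3.27 ± 0.53 SE, adjusted p = 1.24e-05). Without injured library 1 the higher count was 3, and the lower count was 1 with the mouse as a block and without injured library 1, 2 or 3 or contralateral library 1 or 2. Of 21 insulin, AKT and mTOR genes 8 fell and 1 rose, with a median of -0.53, among them Tsc1 (log2 fold change -1.198 ± 0.18 SE, adjusted p = 4.76e-06), an inhibitor of mTOR, and the kinase Gsk3a (log2 fold change -0.75 ± 0.17 SE, adjusted p = 0.000777). The lower count was 5 without injured library 1. The 1 that rose was not called with the mouse as a block or without injured library 1, 2 or 3 or contralateral library 3 or 5. When contralateral libraries 4 and 5 were both left out, 8 fell and 0 rose. Of 15 Notch genes 6 rose and 1 fell. Hes6, which favours differentiation, was at 85.6, 69.1 and 51.4 CPM against 10.5, 8.74, 14.2, 17.6 and 16.1 CPM (log2 fold change 2.35 ± 0.23 SE, adjusted p = 1.14e-08). The higher Notch count was 3 without injured library 1, and the member that fell was not called with the mouse as a block or without injured library 1, 2 or 3 or contralateral library 1 or 2. Of 27 TGF-β and activin genes 6 rose and 7 fell, the latter 4 without injured library 2. Tgfb1 was at 15.8, 14.4 and 12.2 CPM against 3.24, 1.65, 1.24, 3.43 and 5.86 CPM (log2 fold change 2.15 ± 0.395 SE, adjusted p = 5.34e-05). The matrix gene Ltbp2 rose by 3.85 ± 0.47 and Fstl1 by 2.06 ± 0.33 on the log2 scale. The activin receptor Acvr2b fell (log2 fold change -1.37 ± 0.27 SE, adjusted p = 0.000152).

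Atrophy and autophagy genes of the mature fibre were lower: 9 of 16 fell and 2 rose, with a median of -0.91, and 5 fell without injured library 1. The ubiquitin ligase Fbxo32, atrogin-1, was at 57.2, 104 and 169 CPM against 552, 596, 373, 429.5 and 326 CPM (log2 fold change -2.05 ± 0.41 SE, adjusted p = 0.00014), and the autophagy receptor Sqstm1 fell (log2 fold change -1.37 ± 0.27 SE, adjusted p = 0.000112). The metal-binding protein Mt2 was at 214, 214 and 172 CPM against 17.2, 14.7, 32.04, 49.7 and 42.7 CPM (log2 fold change 2.67 ± 0.91 SE, adjusted p = 0.0181). It and Mt1 were the 2 that rose, and 1 of them rose without injured library 1 or 3 or contralateral library 1, 2 or 3. Of 18 cytoskeletal genes of growing cells 16 rose and 0 fell, with Tmsb10, a thymosin, at 36.9, 28.1 and 34.5 CPM against 0.498, 1.65, 1.24, 2.02 and 2.38 CPM (log2 fold change 4.35 ± 0.48 SE, adjusted p = 1.29e-07). Of 12 annexin and S100 genes, proteins of membrane repair, 10 rose and 0 fell, among them S100a6 (log2 fold change 1.77 ± 0.22 SE, adjusted p = 4.44e-07). These counts were 9 and 1 without contralateral libraries 4 and 5. Of 34 proteasome genes 3 rose and 5 fell. The 3 were the immunoproteasome subunits Psmb8 (log2 fold change 1.57 ± 0.36 SE, adjusted p = 0.000818), Psmb9 and Psmb10, and the lower count was 3 without contralateral library 3 or injured library 1, 2 without injured library 2 and 8 with only the young NAM/PN libraries in the fit. Of 42 cytosolic ribosomal protein genes 15 rose and 1 fell, such as Rpl3 at 53.8, 41.99 and 33.8 CPM against 4.24, 5.197, 8.45, 12.7 and 10.99 CPM (log2 fold change 2.36 ± 0.36 SE, adjusted p = 5.11e-06). The higher count was 8 without injured library 1 or 2, 7 of the family were below the filter, and many have near-identical pseudogene copies. The member that fell was not called with the mouse as a block or without contralateral library 3 or injured library 1 or 2.

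Over all genes, the 8 with the largest rise among called genes that averaged 10 CPM or more and whose legs did not overlap were Myh8, Spp1, Myh3, Myl4, Mymk, Chrng, Zdbf2 and Gm28653. Zdbf2, an imprinted gene, was at 131, 149.7 and 89.7 CPM against 5.73, 1.65, 0.745, 9.898 and 10.2 CPM (log2 fold change 4.41 ± 0.57 SE, adjusted p = 7.18e-07), and Gm28653, a gene model (chromosome 1, 20669882 to 20684298), at 79.1, 106 and 73.5 CPM against 2.49, 0.236, 0.994, 7.88 and 8.24 CPM (log2 fold change 4.37 ± 0.67 SE, adjusted p = 5.74e-06). Of these 8, 5 were named above among developmental sarcomere, fusion and receptor genes: Myh8, Myh3, Myl4, Mymk and Chrng. The 8 with the largest fall were 1700001O22Rik, Cdh4, Stab2, 2310065F04Rik, Spns2, Smox, Ppp1r1a and Odf3l2. The gene model 1700001O22Rik was at 0, 1.41 and 2.44 CPM against 29.1, 22.9, 34.8, 21.6 and 25.1 CPM (log2 fold change -4.35 ± 0.79 SE, adjusted p = 4.45e-05), and 2310065F04Rik at 5.897, 11.3 and 11.8 CPM against 148, 102, 194, 93.3 and 121 CPM (log2 fold change -3.77 ± 0.54 SE, adjusted p = 2.48e-06). Smox, the oxidase of spermine, was at 21.4, 46.5 and 82.2 CPM against 708, 587, 375, 447 and 549 CPM (log2 fold change -3.41 ± 0.65 SE, adjusted p = 8.34e-05), and Stab2, a scavenger receptor, fell from 15.9, 21.02, 17.6, 10.9 and 14.8 CPM to 0.274, 0.848 and 2.31 CPM (log2 fold change -3.78 ± 0.53 SE, adjusted p = 1.96e-06). Cdh4, a cadherin (log2 fold change -3.87 ± 0.69 SE, adjusted p = 3.54e-05), and Ppp1r1a, a protein phosphatase inhibitor (log2 fold change -3.33 ± 0.55 SE, adjusted p = 1.54e-05), completed this group with Spns2 and Odf3l2 (log2 -3.47 and -3.299). By the rule, each of the 3 injured libraries was under the lowest contralateral value for these 8 genes.

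The response was mostly shared with young vehicle mice, in which 3698 genes were higher and 3306 lower. Of the 2829 genes higher in young NAM/PN mice 2602 were also higher there, and of the 2277 lower genes 2110 were also lower. Of the 5106 genes 5 went the opposite way and 389 were not called. A test of the difference between the 2 responses called 12 genes, all with a higher response in NAM/PN mice (0.0952% of genes tested), and 543 had an unadjusted p under 0.05. All 12 are genes of the liver's secretory products: Serpina1b, Serpina1c, Serpina1d, Apoa1, Apoa2, Apom, Ttr, Fgb, Alb, Mup3, Ahsg and Gc. Alb, serum albumin, was at 81.3, 0 and 0.9496 CPM in injured and 0, 0, 10.9, 2.02 and 2.197 CPM in contralateral NAM/PN libraries, so it was high in injured library 1 only. In young vehicle mice the 12 genes summed to 679 and 1581 CPM in contralateral libraries 1 and 3, against 0 to 19.4 CPM in the other 4 contralateral and 0.457 to 8.396 CPM in the 5 injured libraries. Without any of the 3 libraries with over 50 CPM of Alb (injured library 1 and vehicle contralateral libraries 1 and 3) the test called 0 genes. Of 19 fits that each left out 1 library, 12 called 0 genes: those without NAM/PN injured library 1, without NAM/PN contralateral library 1, 2, 4 or 5, without vehicle contralateral library 1 or 3 and without any vehicle injured library. The count was 6 without NAM/PN contralateral library 3 and 21 to 27 in the others. It was also 0 with the mouse as a block, without contralateral libraries 4 and 5, and against only those vehicle mice whose labels are written like those of the young NAM/PN mice. Serpina1 genes are near-identical copies. No gene of muscle, matrix or immune cells passed this test. For Pax7 the response in NAM/PN mice minus that in vehicle mice was -1.09 ± 0.502 on the log2 scale, for Myh3 -1.903 ± 1.34, for Cd68 -1.099 ± 0.78 and for Nmrk2 -0.11 ± 0.61.

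**Figure D4:**
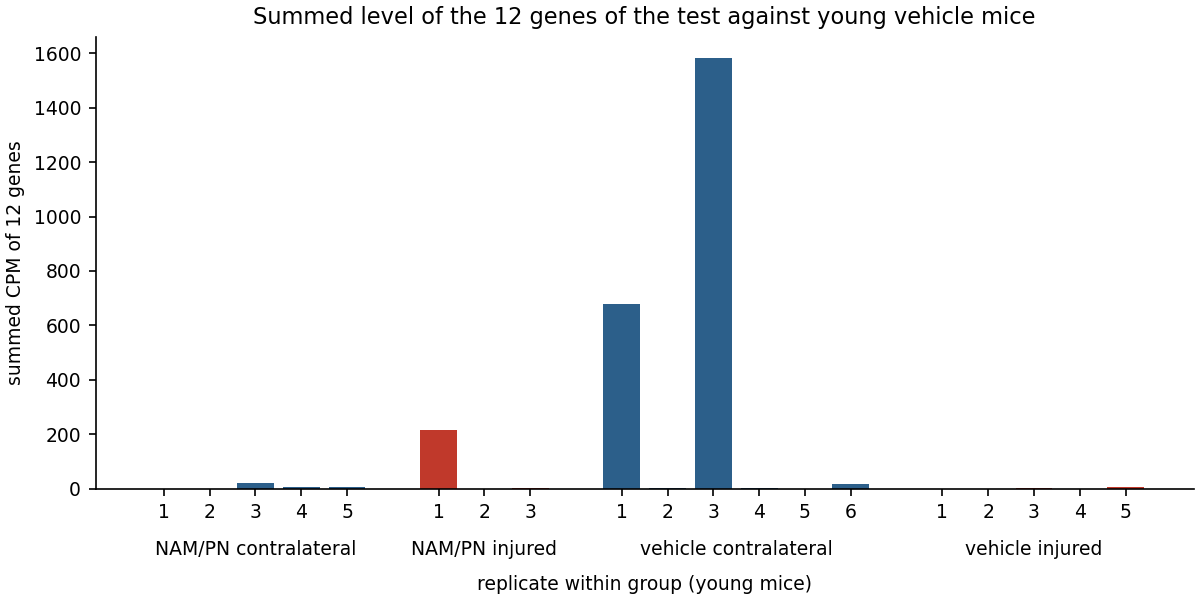
Summed CPM of the 12 genes called in the test against young vehicle mice, 1 bar per young library on a linear axis from 0. The sum is high in NAM/PN injured library 1 and in vehicle contralateral libraries 1 and 3, and no other bar exceeds 20.6 CPM.

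Against aged NAM/PN mice, in which 3684 genes were higher and 3290 lower, 0 genes differed in response (0.0%) by edgeR, 492 had an unadjusted p under 0.05, and the smallest adjusted p was 0.194, while DESeq2 called 2 and limma-voom with quality weights 1. The labels of the young NAM/PN samples are written in one style and those of the aged samples in another, which cannot be told apart from age. Sample descriptions also give the treatment a compound code that differs between young and aged treated mice. Both codes were read as NAM/PN, and whether they mark any difference in treatment is not stated in the sources used here. Among the 61 lists, the sign of the median in young NAM/PN mice differed from that in young vehicle mice for 5. These were slow sarcomere genes (0.802 and -0.105), TGF-β and activin (-0.196 and 0.403), pericyte and smooth muscle markers (0.083 and -0.243), Schwann cell and nerve markers (-0.271 and 0.232) and liver markers (3.18 and -6.70). Against aged NAM/PN mice it differed for slow sarcomere, TGF-β and activin, pericyte and smooth muscle, liver and NAD genes. These differences of sign were not tested. The medians of mitosis, macrophage and collagen genes were smaller in young NAM/PN than in either other group. So were those of many, though not all, other lists, among them stem cell markers. In size this held for falling lists too. Glycolysis had -1.55, beside -2.01 in young vehicle and -1.97 in aged NAM/PN mice, and nuclear respiratory chain genes had -0.76, beside -1.21 and -1.17. These differences were described and not tested. Contralateral libraries 4 and 5 held mitosis, macrophage and collagen RNA. Without those libraries the 3 medians were 4.05, 3.68 and 2.96, and those of glycolysis and respiratory chain genes -1.63 and -0.55.

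**Figure D5:**
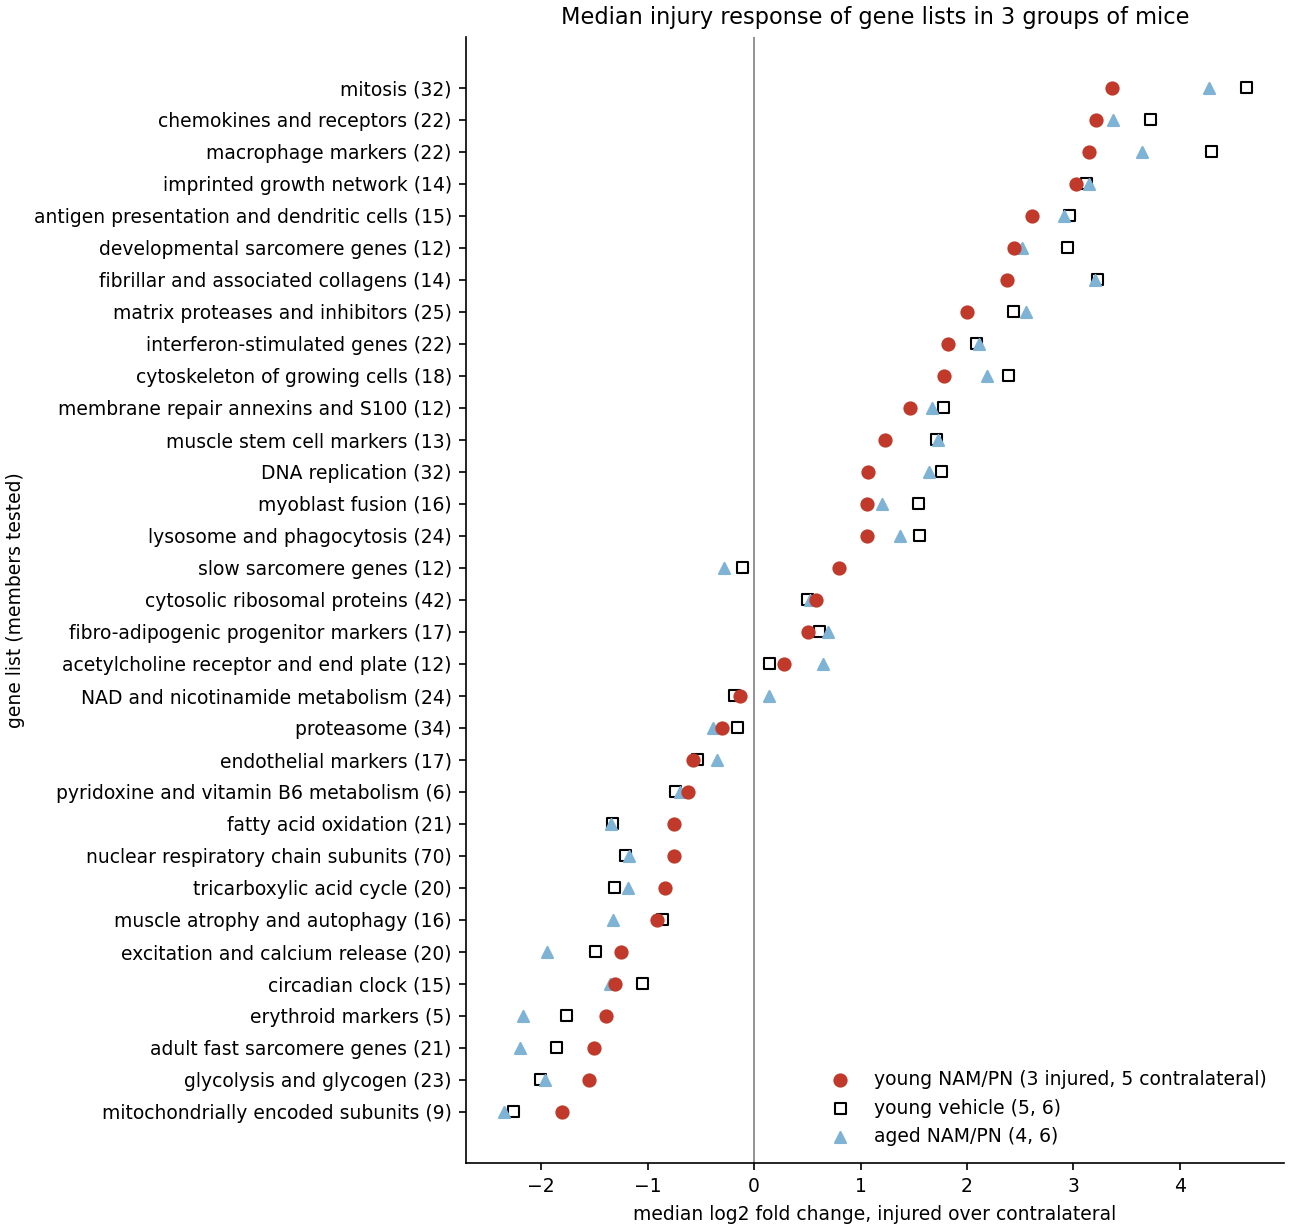
Median log2 fold change, injured over contralateral, of 33 gene lists in young NAM/PN (circles), young vehicle (squares) and aged NAM/PN (triangles) mice, with the number of members tested in brackets. Lists run from mitochondrially encoded subunits at -1.804 to mitosis at 3.36 in young NAM/PN mice, and among the lists drawn the slow sarcomere list is the one whose circle stands apart in sign from both other groups.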

How the data were processed

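The authors sequenced 3′ ends of mRNA (QuantSeq), aligned reads to GRCm38 with STAR and counted reads per gene with HTSeq 2.16.2. The deposited table holds raw counts for 27554 genes in 38 libraries, without normalization. The annotation release and strand setting are not given in the sources used here. Names were found for 27518 Ensembl identifiers, and the 36 others hold 0.00214% of counts. Sample titles gave the groups and sample descriptions the mouse.

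Genes were kept by edgeR's filterByExpr, library sizes were corrected with TMM factors, and a single model with 1 coefficient per group took in all 38 libraries, by edgeR's quasi-likelihood test (edgeR 4.0.16, R 4.3.3). P-values were adjusted by Benjamini and Hochberg over the 12610 genes tested. The SE was the log2 fold change divided by the square root of F. Plotted and printed levels are CPM, computed here from counts and TMM-scaled library sizes. Alternatives used DESeq2 1.42.0, limma 3.58.1, other filters and scalings, the mouse as a block and each library left out. The code was tested on simulated data.

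Gene lists and members were chosen with earlier results of these data known. The genes named are all members of 5 lists (myogenic regulators, developmental sarcomere, acetylcholine receptor, NAD and vitamin B6), up to 4 members of each other list with the smallest p, up to 3 called against the list's majority, members below the filter, the 8 largest changes in each direction over all genes that averaged 10 CPM or more without overlap of the legs, and the leading genes of each difference between responses. Myh4, Myh1, Myh2, Myh7, Mki67, Col1a1 and H19, and the liver genes beyond the leading 6, were added after their values were seen.

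The legs of 3 mice are paired by animal. Across genes, the correlation of the deviations of the 2 legs from their group means was 0.0105, -0.0551 and -0.00188 in these mice. No 2 libraries of a group agreed within sampling noise (chi-square per degree of freedom 6.59 to 39.0). Promoters came from RefSeq, GRCm38.p6. Some genes that every cell uses are at or near 0 in each library, and they are only listed as such. A few members of the lists are counted but not reported here.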

Additional observations from a re-analysis of the deposited data

Results flagged for a closer look

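The response of 12 genes to injury was higher in young NAM/PN than in young vehicle mice by edgeR's test of the difference. All encode proteins that the liver secretes. The difference of the 2 log2 fold changes was 9.03 for Apoa2, 10.15 for Apom and Apoa1, 10.20 for Ahsg, 9.99 for Alb, 10.41 for Serpina1b, 10.47 for Mup3, 11.09 for Gc and Ttr, 11.42 for Serpina1c, 11.47 for Fgb and 11.57 for Serpina1d, with adjusted p from 0.0323 to 0.0448. Their RNA was high in 1 of 3 NAM/PN injured libraries, in 2 of 6 vehicle contralateral libraries and low in the other young libraries, and without these 3 libraries 0 genes were called. The source of this RNA was not tested.

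Among 241 sets of values of named genes within a group, 6 had 1 contralateral library far from the other 4 of young NAM/PN mice. For scale, 1 in 20 of the sets is 12.05, which is not a rate found for this rule. The rule looks for 1 library apart, so it cannot find libraries 4 and 5 departing together. The sets also share the same libraries, so the count does not show that the libraries were alike. Myod1 was at 25.3 CPM in contralateral library 3, against 5.23 to 9.45 CPM in the others. The membrane fusion gene Myof was at 18.6 CPM in library 4 against 5.43 to 8.197 CPM. Nmnat1 was at 17.6 CPM in library 5 against 9.72 to 11.9 CPM, and Nmnat2 at 0 CPM in library 1 against 0.404 to 0.549 CPM. Csf3r was at 0.249 CPM in library 1 and 0 in the others. Alb was at 10.9 CPM in library 3 against 0 to 2.20 CPM.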

How the results depend on the processing

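Of 3572 values of 179 named genes under 20 alternatives, 3444 kept direction and side of the threshold, 104 lost the call and 16 gained it, and 146 genes did so under each alternative. With 1 library left out Musk ran from -0.47 to 0.17, Myh1 from -0.10 to 0.71 and Alb from -2.56 to 4.56. The 8 values that changed sign were uncalled in each case: Musk at 0.17 (log2) without injured library 1 and without the 3 libraries with over 50 CPM of Alb, Myh1 at -0.02 without contralateral library 3 and -0.10 without injured library 3, Myh2 at 0.62 with the mouse as a replicate block and 2.09 without contralateral libraries 4 and 5, and Alb at -2.56 without injured library 1 and -2.58 without the 3 Alb libraries. Genes higher numbered 2098 to 2699 and lower 1451 to 2170 with 1 library left out, and 1405 lower without the 3 Alb libraries. With the mouse as a replicate block 2140 genes were higher. Genes that responded differently from vehicle mice numbered 0 with the block (501 at an unadjusted p under 0.05), with either voom fit, with only young libraries, with vehicle mice of the same label style, without contralateral libraries 4 and 5 and without the 3 Alb libraries, 1 by DESeq2, 19 without the filter and 0 to 27 with 1 library left out. Against aged mice DESeq2 called 2, voom with quality weights 1, and each fit with 1 library left out 0. The difference in mitochondrial share was -13.8 to -10.5 points with 1 library left out and -11.07 in the 3 mice with both legs, where the exact permutation p cannot go below 0.1. Of 2440 list counts 243 moved by over 1.5 times. With 3 injured libraries of 4697589 to 5858525 counts, genes of few counts rest on single libraries. The edgeR p-values rest on a spread estimated from all 38 libraries, those of vehicle and aged mice included. In the main fit the 2 legs of a mouse counted as separate samples. The causes of these changes were not tested.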

Other observations

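Several gene groups outside the comparisons above moved less or in both directions. Of 26 cytokines and growth factors 9 were higher and 5 lower, and the median over the group was 0.38 on the log2 scale. Gdf11, a TGF-β family ligand, was at 11.5, 15.6 and 12.2 CPM in injured libraries 1 to 3 and at 73.5, 33.1, 59.6, 26.1 and 12.1 CPM in contralateral libraries 1 to 5 (log2 fold change -1.64 ± 0.43 SE, adjusted p = 0.00285), with overlapping legs. With the mouse as a block 5 were higher, and without injured library 2 the lower count was 3. Of 12 genes of lipid handling in phagocytes 7 were higher and 2 lower, and 1 was lower without injured library 2. Of 15 basement membrane genes 6 were higher and 1 lower. The lower gene was not called with the mouse as a block or without injured library 1 or contralateral library 5. When contralateral libraries 4 and 5 were both left out, 7 were higher and 0 lower. Sparc, a collagen-binding protein of basement membranes, was at 2976, 2048 and 1934 CPM against 649, 656, 314, 1203 and 863 CPM (log2 fold change 1.65 ± 0.33 SE, adjusted p = 0.000152), and its legs did not overlap.

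Cells of the vessel wall gave opposite members. Of 11 pericyte and smooth muscle markers 2 were higher and 3 lower. Acta2, smooth muscle actin, which myofibroblasts and new fibres also express, was at 264, 198 and 154 CPM against 39.9, 67.1, 41.5, 85.7 and 84.96 CPM (log2 fold change 1.69 ± 0.397 SE, adjusted p = 0.000909), whereas Abcc9, a potassium channel subunit of pericytes, was at 49.9, 65.5 and 86.4 CPM against 137, 155, 141, 108 and 108 CPM (log2 fold change -0.95 ± 0.17 SE, adjusted p = 3.39e-05). The higher count was 1 without any 1 of the injured libraries or of contralateral libraries 2 and 3, and the lower count 1 without injured library 1. Of 11 Schwann cell and nerve markers 2 were higher and 0 lower. Of 3 B cell markers tested 2 were higher, and of 5 mast cell and eosinophil markers 0 were called by edgeR.

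Dystrophin complex genes had 3 of 15 members higher and 4 lower, and cholesterol synthesis 2 of 15 in each direction, with a median of 0.09. Of 17 genes of protein folding in the endoplasmic reticulum 7 were higher and 2 lower, or 4 and 1 with the mouse as a block or without injured library 1. These counts were 6 and 1 without contralateral libraries 4 and 5. Of 13 iron and heme genes 3 were higher and 0 lower, with 1 higher without contralateral library 1 or injured library 1 or 2. The lower count was 1 without contralateral library 4 and without contralateral libraries 4 and 5 together. Of 10 liver markers 0 were called in the injury comparison by edgeR, but 1 was higher without contralateral library 3 and 3 without injured library 2 or 3.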
